A study of Homo sapiens with 24 samples.

Results

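The 9 genes described here encode factors of nonsense-mediated mRNA decay: UPF1, UPF2, UPF3A, UPF3B, SMG1, SMG5, SMG6, SMG8 and SMG9. They were chosen by symbol, and each matched 1 of the 57773 genes of the expression table. The cells were SKOV3.ip1, a line derived from the human ovarian carcinoma line SKOV-3, in which RBFOX2, hnRNPC, hnRNPM or SRSF1, 4 proteins that bind RNA and regulate splicing, was depleted for 72 h with 1 of 2 siRNAs each at 100 nM. Transcripts were measured by TGIRT-seq, in which fragmented total RNA without ribosomal RNA is copied by a thermostable group II intron reverse transcriptase. The 8 siRNA groups (RBFOX2 siRNA_1 and siRNA_2, hnRNPC siRNA_2 and siRNA_3, hnRNPM siRNA_1 and siRNA_3, SRSF1 siRNA_1 and siRNA_3) held 2 libraries each, which the series calls biological replicates. All controls were mock transfections with Lipofectamine and no siRNA, so no group carried an siRNA without a target. The labels assign 1 of 4 mock sets of 2 libraries to each siRNA: set n4/n5 to both RBFOX2 siRNAs, set nov to SRSF1 siRNA_1, set jan to SRSF1 siRNA_3 and hnRNPM siRNA_3, and set oct to hnRNPM siRNA_1 and both siRNAs against hnRNPC.

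Nonsense-mediated decay removes mRNAs on which translation ends too early. UPF1, an RNA helicase, meets the terminating ribosome and is phosphorylated by the kinase SMG1, whose activity is regulated by its partners SMG8 and SMG9. UPF2 links UPF1 to UPF3B or to its paralogue UPF3A, which bind exon junction complexes left behind by splicing, and phosphorylated UPF1 recruits the endonuclease SMG6 and the adaptor SMG5, which helps to bring in deadenylation and decapping. Transcripts of several of these factors are themselves decay substrates, so that a weaker pathway is known to raise the mRNAs of its own components. SRSF1 is also known to promote decay when it is bound to an mRNA.

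The values are TPM, which are relative to transcript length and to the library total, scaled by 1 factor per library so that the typical gene is level between libraries (scaled TPM). Fold changes are differences of log2(scaled TPM + 1) between an siRNA and its own mock set, averaged over both siRNAs of a protein, and the pseudocount of 1 makes them too small for weakly expressed genes. A gene was called when its limma p, adjusted by Benjamini-Hochberg over the 16994 genes tested, was under 0.05 and both siRNAs had the same sign. All 9 decay factors were tested. Sequencing depth is unknown, since TPM carry none. Scaling factors ran from 0.664 to 1.41, small structured RNAs took 64.6% to 80.8% of the TPM, and 0 of 276 pairs of libraries were identical. In 1 alternative fit hnRNPC siRNA_2 replicate 3 and mock nov replicate 1 were left out, below called the libraries that stood apart. With 2 libraries per group it cannot be told which of a pair is the odd 1. The median absolute log2 difference between replicates was 0.169 for hnRNPC siRNA_2 and 0.146 for mock nov. Over the 12 groups it ran from 0.0888 to 0.17. Mock nov replicate 1 had the lowest scaling factor, 0.664. Calls that rest on these libraries are given with and without both. Each targeted mRNA was left at 22.4% (SRSF1) to 32.7% (RBFOX2) of mock in the fit. Percentages of mock in the fit, here and below, are ratios of scaled TPM + 1, which understate a change in level. All 7 markers of the line (keratins, EPCAM, ERBB2 and EGFR) were present in every library, whereas the 7 markers of blood, endothelial, stromal and liver cells analysed summed to at most 0.274 scaled TPM in siRNA libraries and 0.167 in mock libraries; HBB was listed at 0 in 24 of 24 libraries, CD3E in 22 and CDH5 in 18.

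Few decay factors passed the test after any depletion. After RBFOX2 depletion 8 of the 9 had a positive fold change (9 on the values as deposited, 7 after quantile normalisation and 5 against all 8 mock libraries) and 0 were called. SMG9 was the 1 call after hnRNPC depletion, with a rise of 0.57 with siRNA_2 and of 0.07 with siRNA_3. After hnRNPM depletion 0 were called, and after SRSF1 depletion SMG9 and UPF3A fell. Over all 8 siRNAs UPF1 rose. On the values as deposited 0 of these members were called, and the hnRNPC and SRSF1 calls were also lost in fits on the libraries of 1 comparison. A replicate block added calls: UPF1 after RBFOX2 depletion, UPF1 and UPF2 after SRSF1 depletion, and SMG5 over all 8 siRNAs. What the replicate numbers mark is not given in the labels. The called share of all tested genes was 0.112% after RBFOX2 depletion, 6.45% after that of hnRNPC, 1.04% after that of hnRNPM, 9.37% after that of SRSF1 and 5.73% over all 8 siRNAs. The median log2 fold change of the 9 members was 0.14 after RBFOX2, -0.02 after hnRNPC, 0.08 after hnRNPM and -0.11 after SRSF1 depletion, against medians over all tested genes of 0.00, -0.01, 0.00 and 0.00.

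SMG5 had the highest level of the 9 (mean over 24 libraries 31.6 scaled TPM), followed by the kinase SMG1 (22.3), UPF1 (12.2), UPF3A (10.7), SMG8 (7.50), UPF2 (7.48), UPF3B (5.80), SMG9 (4.54) and SMG6 (2.33). SMG8 varied least between libraries, with a highest level 1.33 times its lowest. UPF3B varied most, at 2.78 times, and SMG9 came next at 2.65 times. Much of the variation of UPF3B lay within groups: its 2 mock nov libraries were at 6.08 and 8.97 scaled TPM. That of SMG9 lay between groups. When the 12 groups were ordered by their SMG9 level, 5 of the 11 neighbouring pairs were farther apart than the sum of their SDs, against 2 for SMG1 and SMG5, 1 for UPF3B and SMG8 and 0 for the other members.

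**Figure D1:**
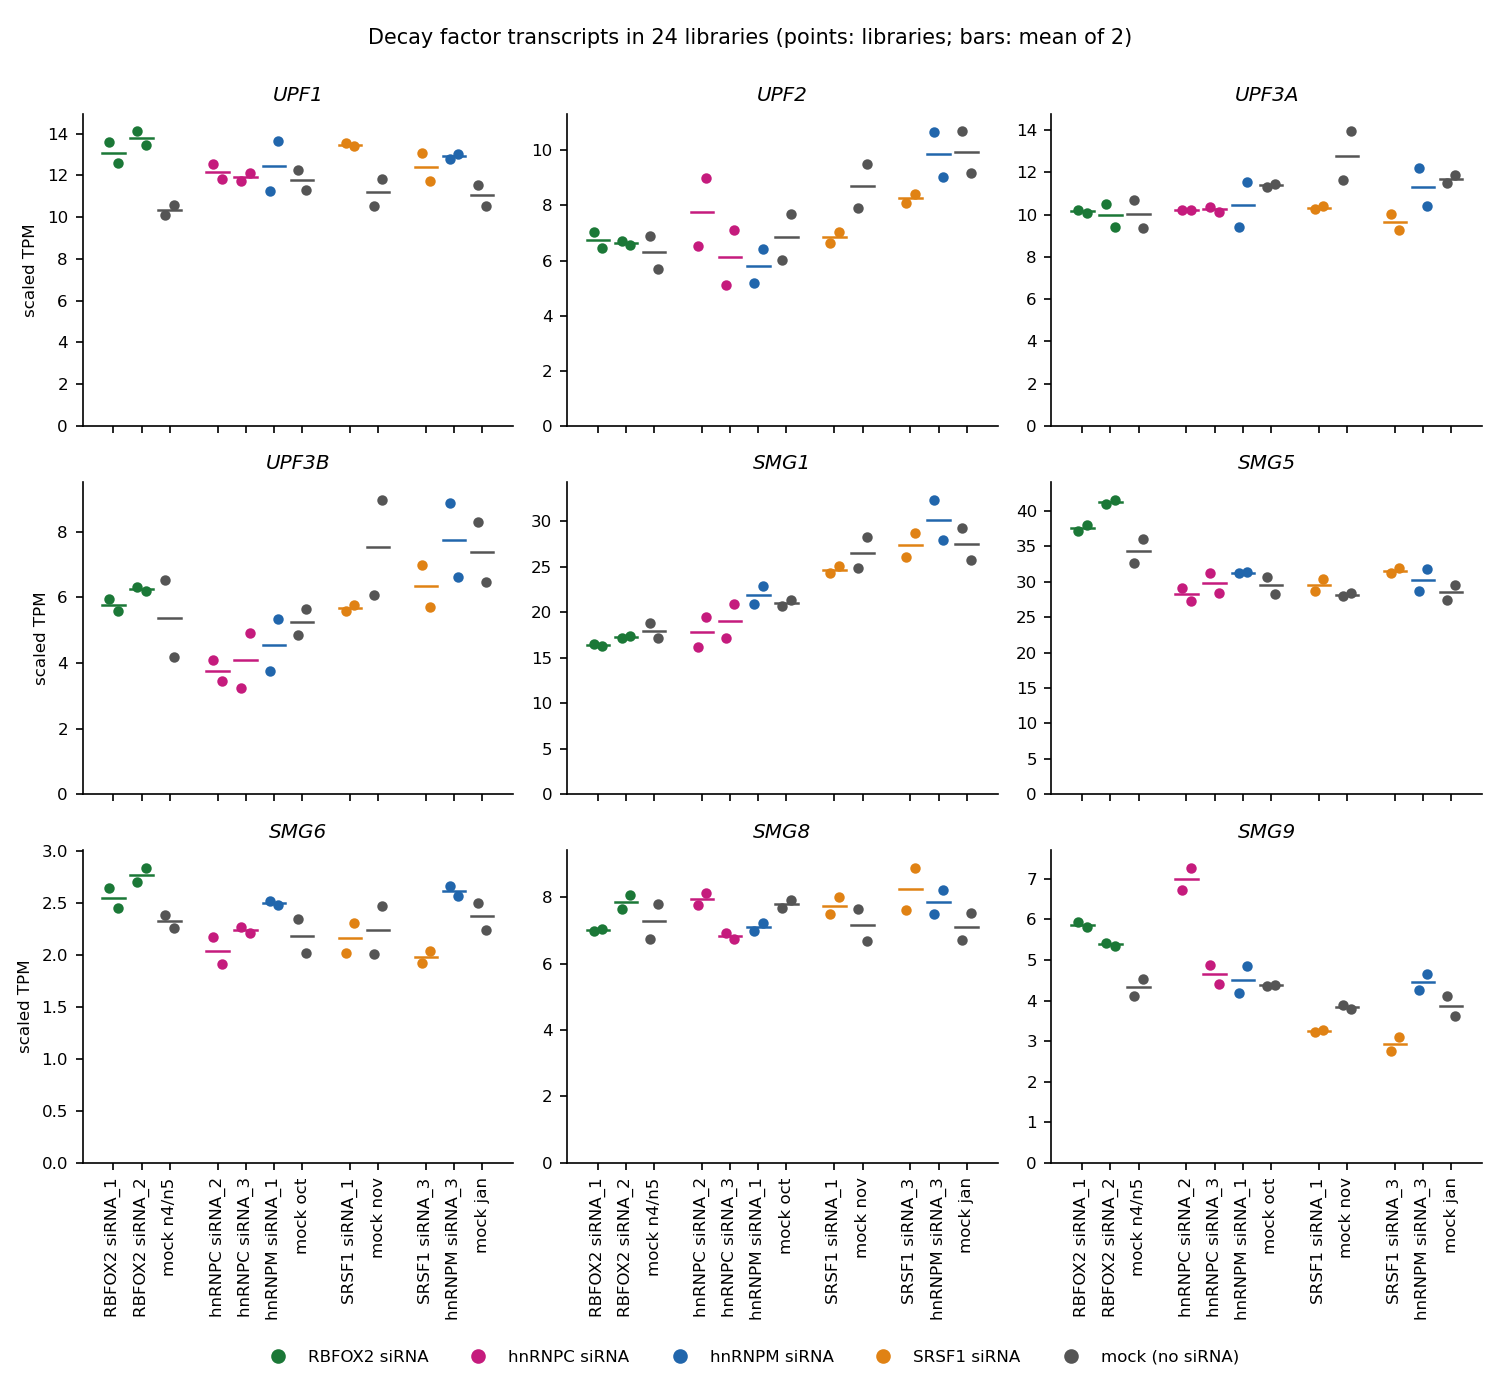
Scaled TPM (linear axis from 0) of the 9 decay factors in each of 24 libraries, with siRNA groups to the left of their own mock set; points are libraries and bars the mean of 2. SMG9 shows groups set apart from each other, from 6.73 and 7.27 with hnRNPC siRNA_2 to 2.75 and 3.11 with SRSF1 siRNA_3, while UPF3B libraries of 1 group often lie far apart.

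SMG9, the GTPase-fold partner of SMG8 in the SMG1 complex (ENSG00000105771, chromosome 19), was the decay factor with the largest range of responses. With hnRNPC siRNA_2 it stood at 6.73 and 7.27 scaled TPM, with hnRNPC siRNA_3 at 4.88 and 4.41, and in the mock oct libraries at 4.36 and 4.39. All 4 hnRNPC libraries were above both mock libraries, those of siRNA_3 by little. The fold change averaged over both siRNAs was 0.32 on the log2 scale (SE 0.0688, adjusted p 0.0121, limma), with 0.57 for siRNA_2 (SE 0.0795, adjusted p 0.000353, limma; 13.3% of all tested genes called) and 0.07 for siRNA_3 (SE 0.0795, adjusted p 0.753, limma). Of all tested genes 2.11% were called higher after hnRNPC depletion. The difference between the 2 siRNAs was itself called, at 0.50 (95% interval 0.33 to 0.67, adjusted p 0.00116, limma), in a comparison in which 11.1% of all tested genes were called. HNRNPC mRNA was left at 30.9% of mock with siRNA_2 and at 27.8% with siRNA_3 in the fit. Without both libraries that stood apart the averaged fold change of SMG9 was 0.30 (adjusted p 0.0483) and the difference between siRNAs 0.46 (adjusted p 0.0313, limma). With either mock oct library left out the averaged fold change missed the threshold (adjusted p 0.0712 without replicate 1 and 0.0834 without replicate 3, limma).

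After SRSF1 depletion SMG9 went the other way. It was at 3.22 and 3.28 scaled TPM with SRSF1 siRNA_1, against 3.88 and 3.79 in mock nov, and at 2.75 and 3.11 with SRSF1 siRNA_3, against 4.11 and 3.62 in mock jan. All 4 SRSF1 libraries were below all 4 mock libraries. The log2 fold change of -0.25 (SE 0.0562, adjusted p 0.0119, limma) left SMG9 at 84.3% of mock in the fit, as a ratio of scaled TPM + 1. It was -0.19 for siRNA_1 (adjusted p 0.263) and -0.31 for siRNA_3 (adjusted p 0.0485, limma); 3.25% of all tested genes were called for siRNA_3 alone. Without both libraries that stood apart the fold change was -0.24 (adjusted p 0.0409, limma). The call was lost without mock jan replicate 1 (adjusted p 0.0640) or SRSF1 siRNA_3 replicate 1 (adjusted p 0.0569, limma).

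With the RBFOX2 siRNAs SMG9 was at 5.93 and 5.81 scaled TPM (siRNA_1) and at 5.42 and 5.36 (siRNA_2), against 4.12 and 4.53 in mock n4/n5. The groups did not overlap, but the fold change of 0.32 was not called (SE 0.0688, adjusted p 0.0827, limma). After hnRNPM depletion SMG9 ranged from 4.18 to 4.86 scaled TPM, against 3.62 to 4.39 in its 2 mock sets, and the fold change of 0.10 (SE 0.0562, adjusted p 0.576, limma) was not called.

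The effects of the 4 depletions on SMG9 were compared directly in 6 contrasts between proteins. The effect of RBFOX2 depletion exceeded that of SRSF1 depletion by 0.56 on the log2 scale (95% interval 0.37 to 0.75, adjusted p 0.00462, limma). For hnRNPC over SRSF1 depletion the difference was 0.57 (0.38 to 0.76, adjusted p 0.00167), and for hnRNPM over SRSF1 depletion it was 0.35 (0.20 to 0.49, adjusted p 0.00628, limma). SMG9 was the 1 member called in each of these 3 contrasts, in which 2.19%, 6.17% and 7.79% of all tested genes were called, and 0 members were called in the other 3. The hnRNPM and SRSF1 values share the mock jan libraries, and the hnRNPC and hnRNPM values share mock oct. The hnRNPC value is the mean of siRNAs that differed (0.57 for siRNA_2 and 0.07 for siRNA_3), and single siRNAs of different proteins were not compared.

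SMG8, the partner of SMG9, did not follow it: its fold changes were 0.03 after RBFOX2, -0.07 after hnRNPC, 0.00 after hnRNPM and 0.14 after SRSF1 depletion (lowest adjusted p 0.159, limma). The ratio of the SMG9 to the SMG8 level was 0.865 and 0.894 with hnRNPC siRNA_2 and 0.706 and 0.653 with siRNA_3, against 0.569 and 0.554 in mock oct. With the SRSF1 siRNAs it was 0.350 to 0.430, against 0.480 to 0.613 in mock nov and mock jan. With RBFOX2 siRNA_1 it was 0.849 and 0.824 and with siRNA_2 0.708 and 0.664, against 0.609 and 0.581 in mock n4/n5. The siRNA libraries of these 3 proteins lay outside the range of their own mock libraries. With the hnRNPM siRNAs the ratio was 0.566 to 0.671, which overlapped the 0.480 to 0.613 of mock oct and mock jan. How often ratios of other gene pairs do not overlap was not analysed.

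SMG1, the kinase itself (chromosome 16), had its largest fold change after hnRNPC depletion, -0.19 (SE 0.0949, adjusted p 0.281, limma), which was not called. Its levels were 16.2 and 19.5 scaled TPM with hnRNPC siRNA_2 and 17.1 and 20.9 with siRNA_3, against 20.7 and 21.4 in mock oct, so the groups overlapped. SMG1 differed more between mock sets than between any siRNA and its mock: it was at 18.8 and 17.2 in mock n4/n5, 24.9 and 28.2 in mock nov, and 29.3 and 25.8 in mock jan. It was lower in n4/n5 than in nov by 0.54 (adjusted p 0.00977) and than in jan by 0.59 (adjusted p 0.00785, limma), 2 comparisons in which 7.77% and 5.80% of all tested genes were called. UPF2 was also lower in n4/n5 than in jan (-0.58, adjusted p 0.0468) and SMG5 higher in n4/n5 than in nov (0.27, adjusted p 0.0373, limma). Levels of these genes set side by side across depletions thus carry the difference between mock sets, which cannot be told apart from whatever else differed between the sets of libraries. SMG1P1, a partial copy of SMG1 in the genome, was at 2.87 to 4.84 scaled TPM, and reads could have been split between the 2 in the authors' counting.

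UPF1 (ENSG00000005007, chromosome 19) was higher than its own mock set with 8 of 8 siRNAs on the scaled values; on the values as deposited its hnRNPC fold change was -0.13, where the median of all genes was itself shifted by -0.13. After RBFOX2 depletion it was at 13.6 and 12.6 scaled TPM with siRNA_1 and 14.1 and 13.5 with siRNA_2, against 10.1 and 10.6 in mock n4/n5, without overlap. The fold change of 0.35 was the largest of any member after RBFOX2 depletion and was not called (SE 0.0750, adjusted p 0.0798, limma). With SRSF1 siRNA_1 UPF1 was at 13.5 and 13.4, against 10.6 and 11.8 in mock nov, and with SRSF1 siRNA_3 at 13.1 and 11.8, against 11.5 and 10.5 in mock jan.

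The lowest SRSF1 library was slightly below the highest of the 4 mock libraries, so the groups overlapped, and the fold change of 0.20 was not called (SE 0.0612, adjusted p 0.0505, limma). After hnRNPM and hnRNPC depletion it was 0.14 (adjusted p 0.421) and 0.03 (adjusted p 0.867, limma). Over all 8 siRNAs the mean of 0.18 was called (SE 0.0390, 95% interval 0.10 to 0.26, adjusted p 0.0139, limma), in a comparison in which 2.11% of all tested genes were called higher. Leaving out mock oct replicate 3 ended this call (adjusted p 0.0762, limma), as did a correction for GC, with a mean of 0.11 (adjusted p 0.188), and the values as deposited (0.19, adjusted p 0.494, limma).

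UPF3A (ENSG00000169062, chromosome 13) fell after SRSF1 depletion. It was at 10.2 and 10.4 scaled TPM with SRSF1 siRNA_1, against 11.6 and 13.9 in mock nov, and at 10.0 and 9.27 with siRNA_3, against 11.5 and 11.9 in mock jan. All 4 SRSF1 libraries were below all 4 mock libraries, and mock nov replicate 2 was well above the rest. The fold change was -0.27 (SE 0.0714, adjusted p 0.0287, limma), with -0.28 for siRNA_1 and -0.25 for siRNA_3, and 5.01% of all tested genes were called lower. The call was lost when any 1 of 6 of the 8 libraries was left out, the exceptions being mock nov replicate 1 and SRSF1 siRNA_3 replicate 1, with the highest adjusted p (0.113, limma) without mock nov replicate 2. Without both libraries that stood apart the fold change was -0.33. Mock nov then consisted of replicate 2 alone, which had the highest UPF3A level of all 24 libraries (13.9 scaled TPM).

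UPF3A was also below mock without overlap after hnRNPC depletion, at 10.2 and 10.2 (siRNA_2) and 10.4 and 10.1 (siRNA_3), against 11.3 and 11.5 in mock oct, but its fold change of -0.14 was not called (SE 0.0874, adjusted p 0.390, limma). It was lower with 7 of 8 siRNAs, and the mean over all 8, -0.12, was not called (adjusted p 0.137, limma). The pseudogene copies UPF3AP1 and UPF3AP2 were at 3.20 to 6.04 and 2.00 to 6.77 scaled TPM, with fold changes of -0.40 and -0.49 after SRSF1 depletion and of 0.20 and -0.67 after hnRNPC depletion. Whether reads were shared between UPF3A and these copies in the authors' counting was not tested, and its level is uncertain to that extent. UPF3B, its paralogue on chromosome X, had the most negative fold change of any member after hnRNPC depletion, -0.35 (SE 0.186, adjusted p 0.304, limma), with 4.08 and 3.45 with siRNA_2 and 3.23 and 4.92 with siRNA_3, against 4.85 and 5.63 in mock oct. Its replicates were too far apart for a call. UPF2 had -0.27 after SRSF1 depletion (SE 0.114, adjusted p 0.166, limma), with 6.64 and 7.04 for siRNA_1, against 7.91 and 9.50 in mock nov, and 8.08 and 8.43 for siRNA_3, against 10.7 and 9.17 in mock jan.

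The factors that act on phosphorylated UPF1, SMG5 and SMG6, had 0 calls. SMG5 was at 37.1 and 38.0 scaled TPM with RBFOX2 siRNA_1 and at 40.9 and 41.6 with siRNA_2, against 32.6 and 36.0 in mock n4/n5, and SMG6 at 2.65 and 2.45 and at 2.71 and 2.84, against 2.39 and 2.26. All RBFOX2 libraries were above mock for both genes. Their fold changes were 0.19 (adjusted p 0.239) and 0.14 (adjusted p 0.484, limma). With UPF1 and SMG9 this made 4 of 9 members without overlap after RBFOX2 depletion, against 20.6% of all tested genes, and 2 of 9 after hnRNPC and after SRSF1 depletion (UPF3A and SMG9 in both), against 19.7% and 13.7%. After hnRNPM depletion 0 of 9 were without overlap, against 4.35%. SMG6 overlaps SRR, a gene on the opposite strand at 0.651 to 1.46 scaled TPM, and the use of strand in counting is not given in the sources used here.

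**Figure D2:**
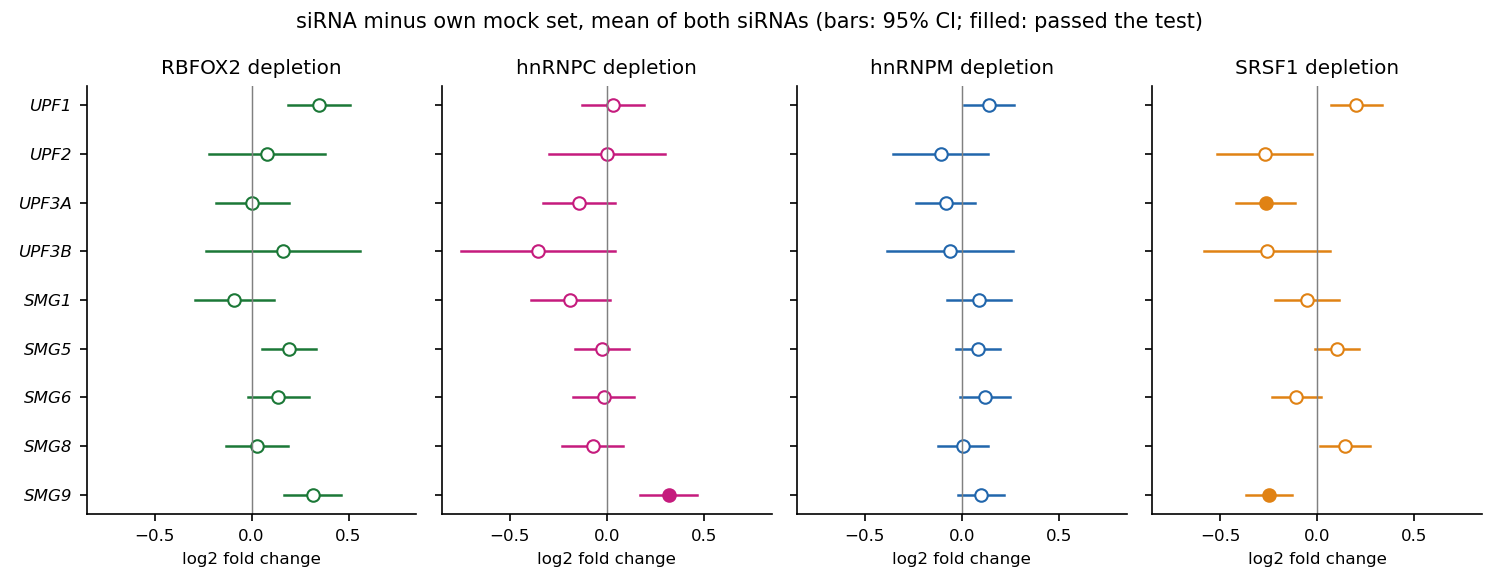
Log2 fold change on the log2(scaled TPM + 1) scale of the 9 decay factors after each depletion, as the mean of both siRNAs minus their own mock sets; bars are 95% intervals and filled points passed the test. Filled points are SMG9 after hnRNPC depletion (0.32) and SMG9 and UPF3A after SRSF1 depletion (-0.25 and -0.27), and UPF3B has the widest intervals.

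The members with a higher GC content tended to have the higher fold changes, though not in strict order. GC content of the longest GENCODE transcript was 60.5% for UPF1, 57.6% for SMG5, 55.3% for SMG6 and SMG9, 47.8% for SMG8, 43.2% for SMG1, 41.8% for UPF3A and UPF3B and 40.3% for UPF2. To show the contrast at the ends of this range, 120 bases from the middle of the coding sequences of UPF1 (bases 1678 to 1797 of 3354) and UPF2 (bases 1909 to 2028 of 3816) are given on the coding strand from GENCODE v29 for GRCh38, with G and C in capitals. They hold 60.0% and 36.7% GC.
UPF1: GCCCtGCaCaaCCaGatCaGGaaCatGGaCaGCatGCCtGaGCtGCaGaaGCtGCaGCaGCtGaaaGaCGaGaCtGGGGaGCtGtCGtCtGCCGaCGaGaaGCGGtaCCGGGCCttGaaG
UPF2: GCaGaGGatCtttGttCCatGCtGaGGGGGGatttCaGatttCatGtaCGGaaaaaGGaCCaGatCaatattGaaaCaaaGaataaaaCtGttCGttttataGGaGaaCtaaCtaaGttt

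Over all 8 siRNAs the 4 members above 50% GC (UPF1, SMG5, SMG6, SMG9) had a mean log2 fold change of 0.11 and the other 5 of -0.07. After RBFOX2 depletion these means were 0.25 and 0.04, and after hnRNPC depletion 0.08 and -0.15. After SRSF1 depletion, where SMG9 fell, they were -0.01 and -0.14. The coding sequence of UPF3A, whose fold change over all 8 siRNAs was -0.12, holds 53.2% GC. The split at 50% thus depends on the measure of GC. Spearman's rho between GC content and fold change over the 9 members, which share all libraries, was 0.933 over all 8 siRNAs, 0.65 after RBFOX2, 0.533 after hnRNPC, 0.833 after hnRNPM and 0.783 after SRSF1 depletion. Across 11270 protein-coding genes the same rho was 0.418, 0.431, 0.229, 0.399 and 0.0917. The relation to GC also differed between replicates of 1 group: the rho of a library's deviation from the mean of all libraries with GC was -0.191 and 0.534 in mock n4/n5 and 0.386 and -0.441 in mock oct. With the correction for GC that ended the UPF1 call over all 8 siRNAs, SMG9 was still called after hnRNPC and SRSF1 depletion and UPF3A after SRSF1 depletion.

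**Figure D3:**
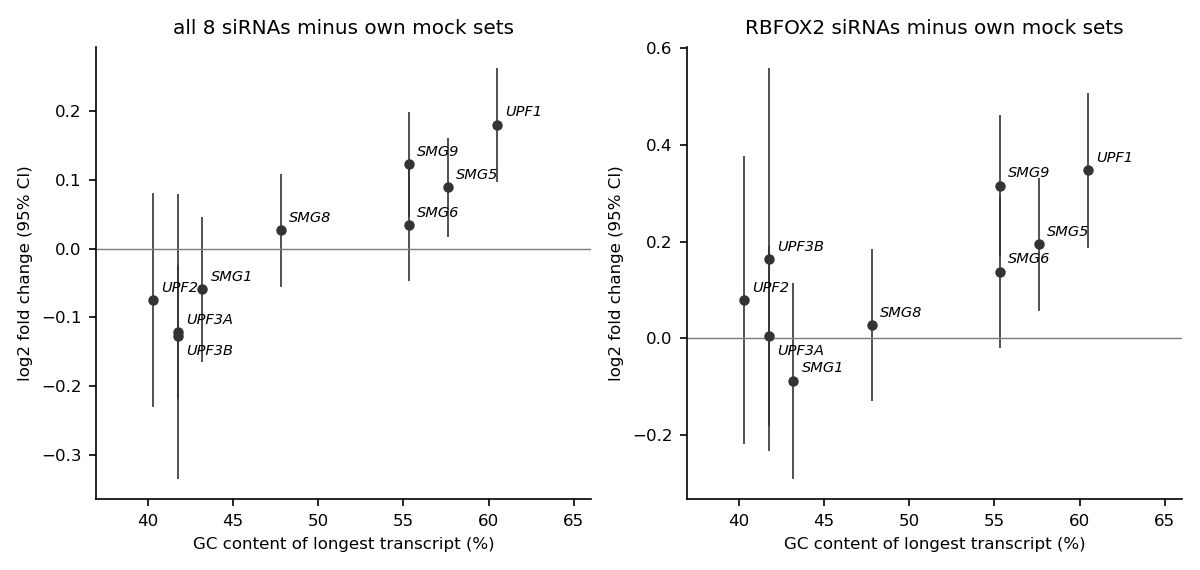
GC content of the longest transcript (%) against the log2 fold change on the log2(scaled TPM + 1) scale of the 9 decay factors, for the mean of all 8 siRNAs (left) and for RBFOX2 siRNAs (right); bars are 95% intervals. On the left the 4 members above 50% GC lie above 0 and the 4 with the lowest GC content lie below it.

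Each decay factor was also set beside 7943 or 7944 other genes with a mean of at least 5 scaled TPM, to find the 2 with the most similar profile over 24 libraries (Pearson's r of log2 values, given as a description since all genes share the libraries). Genes with clone-based or LINC names were left out of these candidates. For SMG9 these were C19orf24 (r = 0.885) and SCAMP3 (0.878), for UPF3A VRK2 (0.851) and KATNA1 (0.809), and for UPF1 CLUH (0.731) and MAP7D1 (0.729). SMG1 was closest to DST and TRIP12 (0.947 each), UPF2 to SMC3 (0.906) and STK3 (0.898), and UPF3B to HNRNPU (0.930) and YTHDC1 (0.924). SMG5 was closest to NDST1 (0.932) and PITPNM1 (0.923), SMG6 to RBFA (0.819) and MYO19 (0.814), and SMG8 to CINP (0.761) and CASP4 (0.702). Among the members themselves UPF2 ran with SMG1 (r = 0.739) and UPF3B (0.712), and SMG1 ran against SMG9 (-0.686) and SMG5 (-0.585). These values carry the differences of SMG1, UPF2 and SMG5 between mock sets given above, and correlations within sets were not computed.

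Of the other genes of the pathway, in 6 lists, 0 were called after RBFOX2 depletion in any list, against 0.112% of all tested genes. The called shares of all tested genes beside the list counts below were 6.45% after hnRNPC, 1.04% after hnRNPM and 9.37% after SRSF1 depletion. The clearest change was that of GSPT1, which encodes the release factor eRF3a that works with eRF1 at stop codons. It was at 16.5 and 17.1 scaled TPM with hnRNPC siRNA_2 and at 18.1 and 18.2 with siRNA_3, against 28.8 and 31.2 in mock oct. All 4 hnRNPC libraries were far below both mock libraries and below every other library of the series. The fold change was -0.75 (SE 0.0708, adjusted p 4.04e-05, limma), with -0.80 for siRNA_2 and -0.69 for siRNA_3, and it was called whichever of its 6 libraries was left out. It was the 1 call among 9 tested termination and cap-binding genes, whose median fold change was -0.08.

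The messenger RNA of XRN1, the 5' to 3' exonuclease that degrades decapped and cleaved mRNAs, also fell after hnRNPC depletion. It was at 4.37 and 3.84 scaled TPM with siRNA_2 and at 4.26 and 4.97 with siRNA_3, against 6.10 and 6.68 in mock oct, without overlap (log2 fold change -0.47, SE 0.0904, adjusted p 0.00670, limma). It was not called once mock oct replicate 3 was left out (adjusted p 0.0908, limma). Of 22 deadenylation, decapping and exonuclease genes, CNOT1 fell as well (-0.22) and LSM1 rose (0.27), and the median was -0.14. Of 12 other decay pathway factors, STAU1, the double-stranded RNA binding protein that recruits UPF1 to 3' ends in Staufen-mediated decay, fell by 0.31 (SE 0.0558, adjusted p 0.00444, limma), with 16.5 to 19.5 scaled TPM in the 4 hnRNPC libraries, against 23.3 and 22.2 in mock oct. Its relative STAU2 fell by 0.25 and NBAS by 0.23. NBAS had -0.38 with siRNA_2 and -0.08 with siRNA_3 (adjusted p 0.659), and the difference of -0.30 was called (adjusted p 0.0118, limma). The median of the list was -0.02.

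Among 10 kinases related to SMG1 and the factors that assemble them, MTOR (-0.37, adjusted p 0.00870) and ATM (-0.28, adjusted p 0.0448, limma) fell after hnRNPC depletion, with a list median of -0.17. MTOR was not called once mock oct replicate 1 was left out (adjusted p 0.0900, limma). The siRNAs differed for both: MTOR was at 8.53 and 6.83 scaled TPM with siRNA_2 and 10.8 and 9.72 with siRNA_3, against 12.3 and 11.3 in mock oct, and the difference of -0.38 was called (adjusted p 0.0116), as was that of ATM (-0.36, adjusted p 0.0177, limma). ATM, the DNA damage kinase, also fell after hnRNPM depletion, by 0.42 (SE 0.0630, adjusted p 0.00244, limma), and was the 1 call in all 6 lists there; it was called without each of the 8 libraries in turn, but not on the values as deposited (adjusted p 0.276) or in a fit on the libraries of that comparison (adjusted p 0.0663, limma). Of 12 exon junction complex and bridging genes 1 was called in the 4 comparisons, ALYREF, an mRNA export adaptor, which rose after hnRNPC depletion (0.56, adjusted p 0.0289, limma). The hnRNPC calls of ALYREF, ATM, CNOT1, LSM1, NBAS and STAU2 were lost when any 1 of at least 3 of the 6 libraries was left out. They were also lost without both libraries that stood apart. On the values as deposited, and in a fit on the hnRNPC and mock oct libraries alone, GSPT1 was the 1 list gene of those called after hnRNPC depletion that was still called; STAU1 had adjusted p 0.134 and 0.244, XRN1 0.0560 and 0.177, and MTOR 0.0957 and 0.269 (limma). After SRSF1 depletion PAN2, a deadenylase subunit, fell by 0.48 (SE 0.102, adjusted p 0.00832, limma) and was the 1 call outside the substrates; it was not called on the values as deposited.

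**Figure D4:**
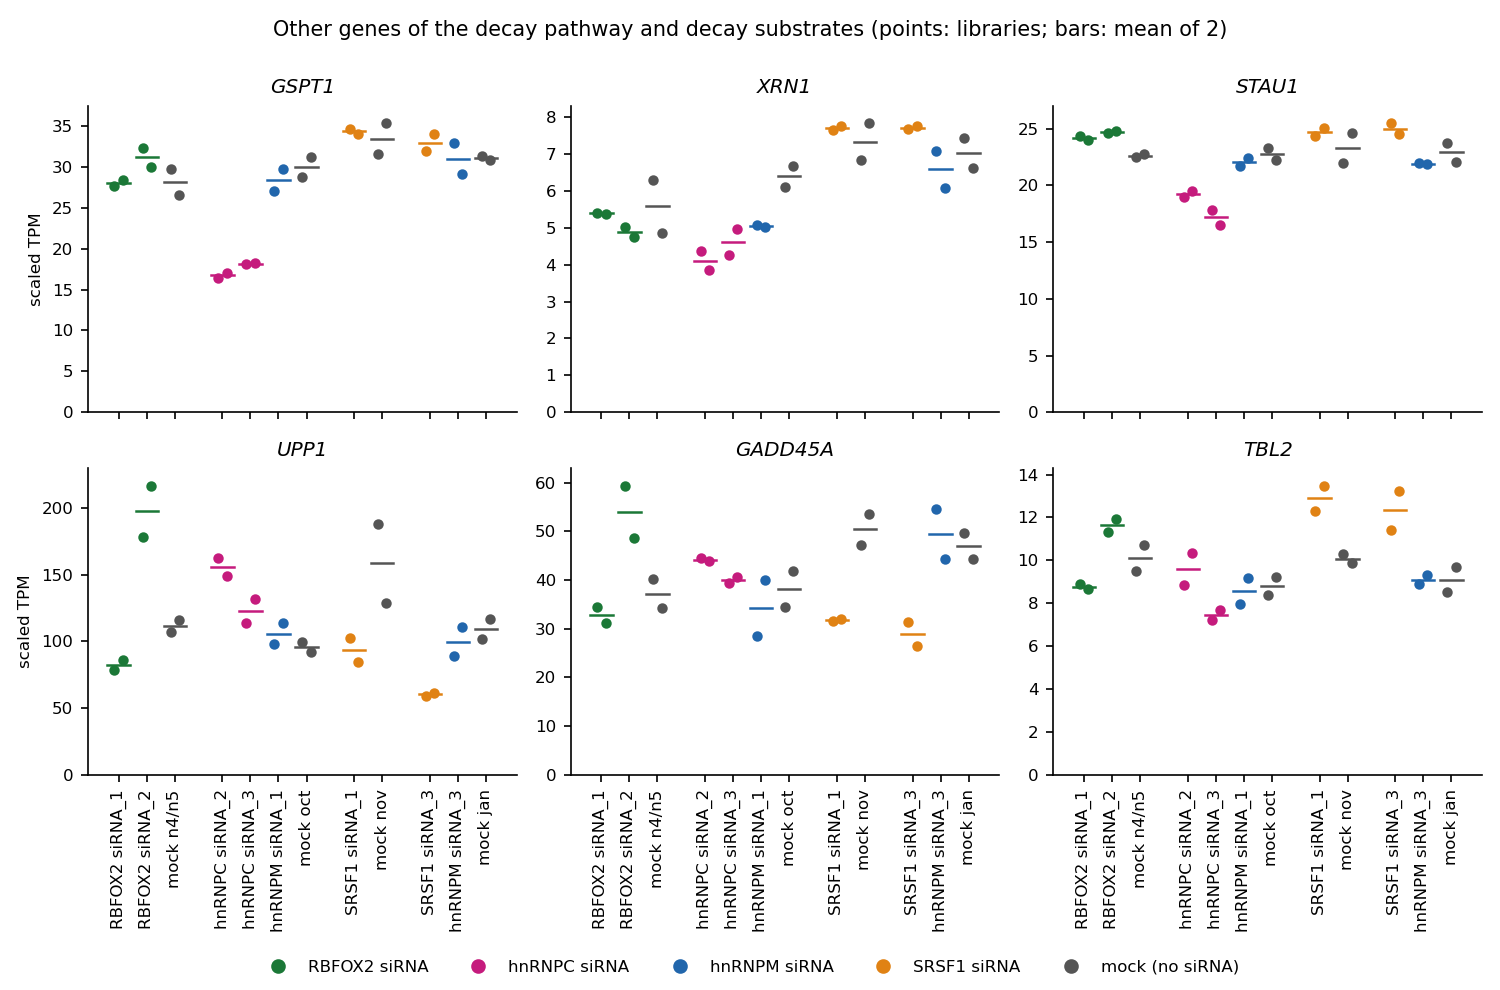
Scaled TPM (linear axis from 0) of 3 other genes of the pathway and 3 decay substrates in each of 24 libraries, with siRNA groups to the left of their own mock set; points are libraries and bars the mean of 2. GSPT1 lies between 16.5 and 18.2 in the 4 hnRNPC libraries, below all other libraries, and UPP1 differs between the 2 RBFOX2 siRNAs.

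Known endogenous substrates of the pathway, 17 in number, did not move in 1 direction. After SRSF1 depletion 2 rose and 4 fell, with a median of -0.13 and 13 of 17 below 0. Of all tested genes 4.36% were called higher and 5.01% lower in this comparison. UPP1, a uridine phosphorylase, was at 103 and 84.3 scaled TPM with SRSF1 siRNA_1, against 189 and 129 in mock nov, and at 59.0 and 61.3 with siRNA_3, against 102 and 117 in mock jan (log2 fold change -0.79, SE 0.118, adjusted p 0.000670, limma). GADD45A, a stress-response gene, fell by 0.67 (adjusted p 0.00142), the small nucleolar RNA host ZFAS1 by 0.62 (adjusted p 0.000575) and the stress transcription factor ATF3 by 0.39 (adjusted p 0.0238, limma). TBL2 (0.36, adjusted p 0.00352) and TMEM183A (0.26, adjusted p 0.00340, limma) rose. All of these but ATF3, which was lost when any 1 of 6 of the 8 libraries was left out, were called without each of the 8 libraries in turn. On the values as deposited UPP1, GADD45A and ZFAS1 were still called, and ATF3, TBL2 and TMEM183A were not. The ATF3 call was also lost without both libraries that stood apart.

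After hnRNPC depletion TMEM183A (0.32, adjusted p 0.00488) and UPP1 (0.53, adjusted p 0.0418, limma) rose and 0 substrates fell, with a median of 0.04. Of all tested genes 2.11% were called higher and 4.34% lower in this comparison. TMEM183A was not called once mock oct replicate 1 was left out (adjusted p 0.0726), and UPP1 not once any 1 of the 6 libraries was left out (adjusted p up to 0.219, limma). After RBFOX2 and after hnRNPM depletion 0 substrates were called, with medians of 0.07 and -0.01. Of all tested genes 0.112% and 1.04% were called there. UPP1 was at 78.7 and 85.9 scaled TPM with RBFOX2 siRNA_1 and at 178 and 217 with siRNA_2, against 107 and 116 in mock n4/n5. The siRNAs lay on opposite sides of mock, and siRNA_1 was lower than siRNA_2 by 1.25 (adjusted p 0.00222, limma), in a comparison in which 1.51% of all tested genes were called. GADD45A was also lower with RBFOX2 siRNA_1 than with siRNA_2, by 0.70 (adjusted p 0.0378, limma).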

How the data were processed

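Gene expression was measured in 24 libraries as TPM, deposited by the authors as 1 table for all samples; every column summed to 1e+06. Per the submitters' processing notes, the tools were Trimmomatic 0.38, TopHat2 2.0.9, SAMtools 0.1.19.0, Bowtie2 2.1.0.0 and FastQC 0.10.1, with the hg19 assembly. The counting tool, its annotation and its use of strand are not given in the sources used here, and depth is unknown.

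Deposited TPM were scaled by factors from the median ratio to the geometric mean of all libraries, taken over the 22727 genes that were never 0, and analysed as log2(scaled TPM + 1). The 16994 genes that reached 1 TPM in 2 or more libraries were fitted in limma 3.58.1 (R 4.3.3) with the means of the 12 groups and empirical Bayes moderation with a trend (12 residual and 3.04 prior degrees of freedom). Each siRNA was compared with the mock set that the labels name as its control, and between-protein, between-siRNA and between-mock differences were tested in the same fit. GC content came from GENCODE v29 by gene identifier; its assembly is not that of the table, so no coordinates are given. The fit was tested on simulated data.

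The members and the gene lists were chosen with earlier results of these data known. Named besides the members were list genes called in at least 1 of the 4 protein comparisons, the 4 targeted genes, gene copies, and for each member the 2 genes most similar in profile; overlapping genes were added. Alternatives were 3 other scalings, another pseudocount, 2 other filters, a replicate block, no trend and all mock libraries as control. Others were a GC correction with and without the block, and each library left out. Fits on 1 comparison were chosen after the data were seen. So was the fit without the 2 libraries called apart here (hnRNPC siRNA_2 replicate 3 and mock nov replicate 1).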

Additional observations from a re-analysis of the deposited data

Results flagged for a closer look

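The response of SMG9 differed between groups in 4 tests. It was higher with hnRNPC siRNA_2 than with hnRNPC siRNA_3 by 0.502 on the log2(scaled TPM + 1) scale (adjusted p 0.00116, limma), against the same mock libraries. HNRNPC mRNA was left at 30.9% and 27.8% of mock with these siRNAs in the fit, and other targets of the siRNAs were not analysed here. The effect of RBFOX2 depletion on SMG9 exceeded that of SRSF1 depletion by 0.563 (adjusted p 0.00462), that of hnRNPC depletion exceeded it by 0.567 (adjusted p 0.00167), and that of hnRNPM depletion by 0.346 (adjusted p 0.00628, limma). These 4 differences were called without each of the 24 libraries in turn, with adjusted p up to 0.0454 (limma).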

How the results depend on the processing

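The count of decay factors called was 0 for RBFOX2, 1 for hnRNPC, 0 for hnRNPM, 2 for SRSF1 and 1 over all 8 siRNAs, and 0 named values changed from a call in 1 direction to the other. On the values as deposited, where the median gene was shifted by 0.21 for RBFOX2 and by -0.13 for hnRNPC, the counts were 0 for hnRNPC, 0 for SRSF1 and 0 over all siRNAs. Fits on the libraries of 1 comparison also gave 0 for hnRNPC (SMG9, adjusted p 0.246) and 0 for SRSF1 (SMG9, adjusted p 0.0607, limma). No filter gave 1 for SRSF1. Quantile normalisation and a common total each gave 2 over all siRNAs, with 1039 and 805 of 16994 tested genes called. The GC correction gave 0, with 1162 of 16260 called. Against all 8 mock libraries the counts were 5 for RBFOX2, 3 for hnRNPC and 2 over all siRNAs. In that setting 5003, 4411 and 1625 of all 16994 tested genes were called in these comparisons. Leaving out 1 library gave 0 to 1 for hnRNPC, 0 to 2 for SRSF1 and 0 to 2 over all siRNAs. The filter at 5 TPM left SMG6 untested. The cause of these shifts was not tested.

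With a replicate block the counts were 1 for RBFOX2 (UPF1, adjusted p 0.0450), 4 for SRSF1 (with UPF1, adjusted p 0.0428, and UPF2, adjusted p 0.00802, added) and 2 over all siRNAs (SMG5 added, adjusted p 0.0380, limma), and with the GC correction and the replicate block 6 for SRSF1. With the block 363, 2805 and 2238 of all 16994 tested genes were called in these comparisons. With block and GC correction 3485 of 16260 were called for SRSF1. Same-numbered libraries deviated together at correlations of 0.0615 to 0.431 in 13 pairs of groups, over 0.1 in 12. Groups of different mock sets were not compared in this way. The labels do not say what the numbers mark, and whether they mark a shared step was not tested.

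Among the 8 single siRNAs 2 calls were made (SMG9 with hnRNPC siRNA_2 and SRSF1 siRNA_3), against 0 as deposited, 1 without a filter, 1 without the trend, 1 without both libraries that stood apart, 5 with the block, 6 with block and GC correction, 16 against all mock libraries and 1 to 3 without 1 library. Between siRNAs 1 was made, against 2 with the block, 3 with block and GC correction and 3 against all mock libraries. Between proteins 3 were made, against 1 as deposited, 6 with the block, 11 with block and GC correction and 19 against all mock libraries. Between mock sets 4 were made, against 20 as deposited, 2 without a filter, 10 with the block, 10 with block and GC correction and 0 to 5 without 1 library, the 0 without mock n4/n5 replicate 5. The shares of all tested genes called in these contrasts under the alternatives are not given here, so these counts have no background beside them.

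Calls over all genes ranged from 1 to 5003 for RBFOX2 (19 as reported), 58 to 4411 for hnRNPC (1096), 37 to 531 for hnRNPM (176), 249 to 3485 for SRSF1 (1593) and 51 to 2373 over all siRNAs (974). Depth is unknown, so the counting error of the members could not be given.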

Other observations

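Over all 8 siRNAs 6 list genes were called, from lists of 12, 12, 9, 22, 17 and 10 tested genes. Of all tested genes 5.73% were called in this comparison. GSPT1 (-0.16, adjusted p 0.0171), PNRC1 (-0.22, adjusted p 0.0118), ATM (-0.25, adjusted p 0.00271) and ZFAS1 (-0.30, adjusted p 0.00804, limma) were lower. EDC4 (0.17, adjusted p 0.0473), a scaffold of the decapping complex, and TMEM183A (0.13, adjusted p 0.0261, limma) were higher. GSPT1 fell with hnRNPC siRNA_2 and siRNA_3 (-0.80 and -0.69) and was between -0.08 and 0.15 with the other siRNAs. TMEM183A was below mock with RBFOX2 siRNA_2 and both hnRNPM siRNAs. ATM and ZFAS1 were below mock with every siRNA. PNRC1 and EDC4 were not called in any of the 4 protein comparisons and were named after their values were seen.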
